A study of Mus musculus with 3 samples.

Results

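This account covers 10 genes of the extracellular matrix, Postn, Lum, Smoc1, Smoc2, Tnc, Bgn, Sparc, Fn1, Fbn2 and Hapln1, among the 51923 genes of a single-cell RNA sequencing study of mouse embryos. The genes were picked by name, with results from these same cells already known, so their levels below are a description and no fit on them is independent support for the choice. All 10 were found in the count matrix. Cells came from embryos of C57BL/6 background that all carried Mesp1-Cre and the Ai9 reporter, which marks cells with a history of Mesp1-Cre activity by tdTomato fluorescence. Controls were Wls fl/+, so they too carried 1 floxed Wls allele, and mutants were Wls fl/fl; Wls is the transporter that Wnt proteins need to leave the cell. Because Mesp1-Cre is active in early mesoderm and the cells were sorted on tdTomato, cells without that history lay outside the sort. Embryos were marked with MULTI-seq lipid barcodes, which let several samples share a 10x Chromium v3 capture, and the number of embryos behind a barcode is not given in the sources used here.

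The 22 barcode samples were 12 controls and 10 mutants. At E8.0 there were 3 control and 3 mutant samples, at E8.5 2 control samples and 1 mutant sample, and at E9.5 6 control and 6 mutant samples. A lone E7.5 control sample of 28 cells made up the rest. Samples were the unit of every test, and nothing in the labels says that they came from separate litters, so p-values measure only the spread between these samples.

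Matricellular proteins sit in the matrix without being its main fibres, and bind cells, growth factors and collagen. Small leucine-rich proteoglycans decorate collagen fibrils, link proteins fasten proteoglycans to hyaluronan, and fibronectin and fibrillin form the provisional fibres and microfibrils on which other matrix is laid down. In the embryonic heart such proteins fill the cardiac jelly between myocardium and endocardium, and they surround the proepicardium, the cell cluster at the venous pole from which the epicardium grows.

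The 14777 cells held 331587989 UMIs (unique molecular identifiers, each counting 1 captured transcript), with a median of 21739 per cell. Samples held from 134457 to 61307782 UMIs. All E8.0 samples lay in run 1 of 3 sequencing runs and all E8.5 samples in run 2, so stage and run overlap, and E9.5 was spread over all 3. Wls itself was 35.9 to 46.1 CPM (UMIs of a gene per 1000000 UMIs of its sample) in the E9.5 controls and 8.54 to 12.1 CPM in the E9.5 mutants. The E9.5 control Bar6 had 6 cells and the E9.5 mutant Bar5 had 57, and 23 cell barcodes occurred in more than 1 run. Cells with a UMI of any of 4 Y-linked genes and no Xist UMI were counted as male. Their share was 80.5 to 82.4% in the E8.0 mutants against 1.63 to 42.6% in the E8.0 controls. At E9.5 it spanned 1.79 to 82.5% in mutants and 1.15 to 100% in controls. Bgn lies on the X chromosome; the part of the embryos' sex in the E8.0 values was not tested. Over all cells none of the marker genes of the mesodermal lists was at 0, and the 8 neural and neural crest markers together made 53.1 CPM against 2760 CPM for the 10 cardiomyocyte markers.

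At E9.5, 5 of the 10 genes rose in the mutants and none fell. edgeR's quasi-likelihood test, with Benjamini-Hochberg adjustment over all 17227 genes tested and a threshold of 0.05, called Postn, Smoc2, Sparc, Tnc and Fn1. Over all genes it called 10.3%, and called 5.71% as higher in mutants. The members' median log2 fold change (mutant against control throughout) was 0.44, beside 0.02 for all genes tested. limma on the mean CPM per cell, which gives every sample equal weight whatever its number of cells, called none of the 10 at E9.5, where it called 0.766% of all genes and 2413 genes had an unadjusted p under 0.05; its log2 fold changes were 1.60 for Postn, 2.04 for Smoc2, 1.01 for Sparc, 0.84 for Tnc and 0.69 for Fn1 (adjusted p = 0.305, 0.158, 0.111, 0.503 and 0.310). In bulk sums of this kind, a change in the number of cells of a type and a change in RNA per cell cannot be told apart.

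Postn encodes periostin, a matricellular protein of endocardial cushions, valves and periosteum that takes part in collagen assembly. In the 6 E9.5 controls it was lowest at 0 CPM, had a median of 12.2 and reached 21.99. In the 6 mutants the lowest was 4.31, the median 61.1 and the highest 68.6. The control at 0 CPM was Bar6, with 6 cells. Bar6 is also the lowest E9.5 control given below for Smoc2, Sparc, Tnc, Fn1, Fbn2, Lum and Hapln1. Of the mutants, 5 of 6 lay above the highest control, and the exception was Bar5, the sample of 57 cells. The log2 fold change was 1.78 ± 0.33 (SE; adjusted p = 0.00437, edgeR). The E9.5 samples lay in 3 sequencing runs. In run 1 alone the change was 1.75 and in run 3 alone 2.63, each called, where edgeR called 7.40% and 0.522% of all genes. Run 2 held 1 mutant, Bar5, against control Bar4 and the 6 cells of control Bar6, so its value, -1.48, is given without a test, as are the run 2 values of the genes below.

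Smoc2, a modular calcium-binding protein of the Sparc family, had control values with a lowest of 0 CPM, a median of 6.44 and a highest of 12.7 at E9.5. The mutants ran from 15.1 through a median of 27.4 to 34.2 CPM, and the groups did not overlap. Its log2 fold change was 1.66 ± 0.23 (SE; adjusted p = 0.000533, edgeR). Within runs it was 1.44 in run 1, where it was called, 2.37 in run 3 (adjusted p = 0.0913, edgeR) and 1.74 in run 2. Its paralogue Smoc1, which antagonises BMP signalling, showed no such shift: the controls had a lowest of 1.68 CPM, a median of 12.1 and a highest of 18.3, and the mutants 2.16, 11.7 and 16.2. The mutant range lay inside the control range, with a log2 fold change of -0.24 ± 0.24 (SE; adjusted p = 0.589, edgeR).

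Sparc encodes osteonectin, which binds collagen and calcium and modulates how cells adhere. At E9.5 the lowest, median and highest control were 44.6, 177 and 220 CPM, and the same 3 values of the mutants were 281, 339 and 369 CPM. The lowest control was Bar6, with 6 cells, and the next was Bar4 at 140 CPM. The groups did not overlap, and the log2 fold change was 0.91 ± 0.17 (SE; adjusted p = 0.00477, edgeR). The change was called in run 1 alone, at 0.61, and in run 3 alone, at 0.81, and was 2.02 in run 2. Tnc encodes tenascin C, an adhesion-modulating glycoprotein of mesenchyme under remodelling. The E9.5 controls ran from 0 through a median of 12.4 to 17.0 CPM and the mutants from 10.8 through 24.5 to 29.1 CPM, with 5 of 6 mutants above every control. The log2 fold change was 0.74 ± 0.14 (SE; adjusted p = 0.00423, edgeR). It was called in run 1 alone at 0.84, was 0.68 in run 3 without a call (adjusted p = 0.266, edgeR) and 0.46 in run 2.

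Postn, Tnc and Sparc are shown by the 250 bases upstream of a RefSeq transcription start (GRCm38.p6, 5′ to 3′ on the gene's strand), because they are the 3 members that rose at E9.5 and had a start in the RefSeq promoter table, which matched 5 of the 10 members. Capitals mark matches to either of 2 motifs, the TATA box TATAAA on the sense strand and the SMAD box CAGACA on either strand, out of 5 motifs searched.
Postn, chr3:54360857-54361106, plus strand: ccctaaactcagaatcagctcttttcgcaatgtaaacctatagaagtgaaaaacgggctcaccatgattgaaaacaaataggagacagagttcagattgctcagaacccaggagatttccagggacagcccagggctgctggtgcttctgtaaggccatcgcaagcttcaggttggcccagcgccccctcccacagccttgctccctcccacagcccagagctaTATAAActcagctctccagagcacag
Tnc, chr4:64047016-64047265, minus strand: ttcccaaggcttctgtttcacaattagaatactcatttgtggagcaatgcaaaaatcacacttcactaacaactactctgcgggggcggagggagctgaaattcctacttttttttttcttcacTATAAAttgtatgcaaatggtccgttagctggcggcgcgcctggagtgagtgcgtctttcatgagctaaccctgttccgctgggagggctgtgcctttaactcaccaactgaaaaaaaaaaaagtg
Sparc, chr11:55420081-55420330, minus strand: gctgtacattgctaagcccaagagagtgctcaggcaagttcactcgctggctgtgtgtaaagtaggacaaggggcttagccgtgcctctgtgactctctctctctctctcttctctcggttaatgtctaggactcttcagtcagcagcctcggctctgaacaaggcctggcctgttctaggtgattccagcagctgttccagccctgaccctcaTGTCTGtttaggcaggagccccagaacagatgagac
The Postn window held TATAAA from 26 to 21 bases upstream of the start and the Tnc window held it from 126 to 121. The Sparc window held CAGACA on the antisense strand from 36 to 31 bases upstream, and its start lies 3103 bases inside the gene's outermost annotated start. Among the 32851 promoter windows of the same length, searched on both strands, TATAAA was present in 12.4% and CAGACA in 17.1%. The other motifs were the TCF/LEF core CTTTGA (13.8% of windows), the hypoxia response core ACGTG (16.6%) and the TEAD core GGAATG (12.6%), and none of these 3 was in the 3 windows printed. A match is a run of letters and no evidence of binding.

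Fn1 encodes fibronectin, the early embryonic matrix glycoprotein that integrins bind. At E9.5 its controls had a lowest value of 29.7 CPM, a median of 112 and a highest of 186, and its mutants 138, 205 and 237. Of the 6 mutants 4 lay above all controls. The log2 fold change of 0.56 ± 0.15 (SE; adjusted p = 0.0296, edgeR) was close to the threshold: leaving out control Bar22, Bar23, Bar7 or Bar9, or mutant Bar5 or Bar8, took the adjusted p to between 0.0509 and 0.0720 with a fold change of 0.49 to 0.62. Within runs 1 and 3 it was 0.32 and 0.81, neither called (adjusted p = 0.0771 and 0.0714, edgeR), and in run 2 0.99. Fbn2 encodes fibrillin 2, the microfibril protein of embryonic tissue. It ran from 37.2 through 109 to 189 CPM in the controls and from 59.3 through 146 to 160 CPM in the mutants, with a log2 fold change of -0.07 ± 0.13 (SE; adjusted p = 0.810, edgeR). An antisense gene overlaps exons of Tnc, of Fn1 and of Fbn2 in the annotation; their mean levels were 0.335 CPM for the gene opposite Tnc, 2.12 CPM opposite Fn1 and 0 opposite Fbn2, and the strand setting of the counting is not given in the sources used here.

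The proteoglycans and the link protein did not pass the test at E9.5. Lum encodes lumican, a keratan sulphate proteoglycan of collagen fibrils, and its mutants were spread widely. Controls had a lowest of 7.44 CPM, a median of 45.7 and a highest of 48.7, and the mutants 8.62, 57.0 and 100.5 (log2 fold change 0.32 ± 0.32, SE; adjusted p = 0.583, edgeR). Bgn encodes biglycan, a related proteoglycan with chondroitin or dermatan sulphate chains, and ran from 7.12 through 15.0 to 23.4 CPM in controls and from 10.1 through 16.5 to 26.9 CPM in mutants. Its log2 fold change was -0.14 ± 0.22 (SE; adjusted p = 0.770, edgeR). Hapln1, the link protein that ties versican to hyaluronan in the cardiac jelly, ran from 0 through 48.1 to 54.1 CPM and from 34.5 through 49.5 to 83.8 CPM, with a log2 fold change of 0.13 ± 0.21 (SE; adjusted p = 0.780, edgeR). With samples of at least 60 cells (5 against 5), every mutant lay above every control for Postn, Tnc, Smoc2 and Sparc, and 4 of 5 for Fn1. The share of all genes that separate in this way was not counted, here or for other groups described as not overlapping. When the share of male cells per sample entered the fit, Lum was called too, at 0.74 (adjusted p = 0.01001, edgeR), which made 6 genes where 7.49% of all genes were called, and the 5 others kept their calls.

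**Figure D1:**
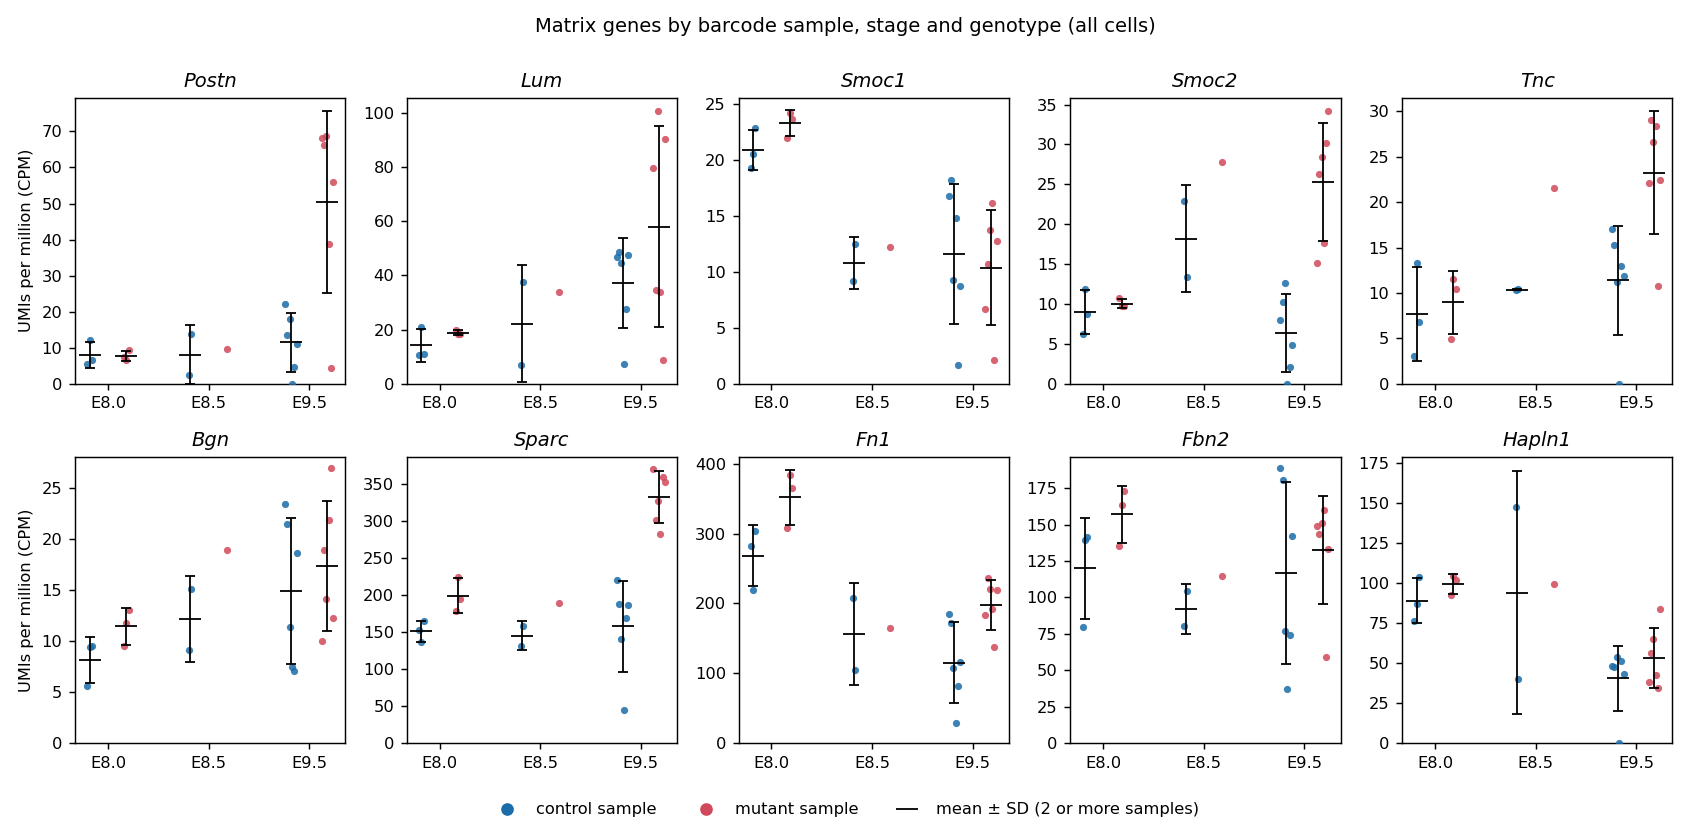
Level of each of the 10 genes in CPM (linear axis from 0) in all cells of each barcode sample, by stage and genotype; points are samples and the black bars are the mean ± SD of groups with at least 2 samples. The E9.5 mutants of Smoc2 lie at 15.1 to 34.2 CPM above E9.5 controls of 0 to 12.7 CPM, whereas the Smoc1 groups overlap. The Smoc2 control at 0 CPM is Bar6, with 6 cells.

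Markers of the proepicardium and septum transversum were also higher in the E9.5 mutants, and whether the 10 genes followed them from sample to sample was not tested. The summed level of 8 such markers (Wt1, Tbx18, Tcf21, Upk3b, Upk1b, Krt19, Aldh1a2 and Lhx2, 8 of 8 found, none at 0 over all cells) was 14.9 to 148 CPM in the 6 E9.5 controls and 178 to 299 CPM in the 6 mutants. In E9.5 samples of at least 60 cells it was 64.9 to 148 CPM in controls and 178 to 256 CPM in mutants. At E8.0 it was 123 to 182 against 137 to 179 CPM. Other marker lists differed too in E9.5 samples of at least 60 cells. Medians were 207 CPM in controls and 251 CPM in mutants for second heart field, and 2179 and 3543 CPM for cardiomyocyte markers. The posterior lateral plate, endothelium and endoderm medians were also higher in mutants. Those of the paraxial, cranial, blood and neural lists were lower. Among E9.5 samples of at least 60 cells, Wt1-positive cells made up 7.01 ± 2.26% of control cells and 13.3 ± 2.11% of mutant cells (SD, n = 5 each). Cells with at least 3 UMIs over the 8 markers, a threshold set after the data were seen, made up 26.5 ± 11.1% and 36.1 ± 7.04%. In run 1 they were 38.2 and 36.2% of E9.5 control cells and 38.4, 43.1 and 41.6% of E9.5 mutant cells. At E8.0 they were 36.0 ± 7.61% and 38.0 ± 4.21% (SD, n = 3 each). Of the 5156 such cells over all stages, 965 were also Wt1-positive. The class took in 1829 of the 4230 cells with a Meox1 UMI and 523 of the 1083 with at least 10 Tnnt2 UMIs. It is thus not confined to the proepicardium.

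Within these marker-bearing cells the same 5 genes were called. In them Postn averaged 31.6 ± 12.6 CPM in the E9.5 controls (SD, n = 5) and 114 ± 55.4 CPM in the mutants (SD, n = 6). Mutant Bar5, at 12.4 CPM, was below every control, while the other mutants, at 91.9 to 159 CPM, were above them all. The log2 fold changes in these cells were 1.76 ± 0.32 for Postn, 1.61 ± 0.20 for Smoc2 and 0.97 ± 0.13 for Sparc (SE; adjusted p = 0.00243, 0.000171 and 0.000242, edgeR), which is as large as in all cells. Tnc differed by 0.62 ± 0.17 (adjusted p = 0.0215, edgeR) and Fn1 by 0.53 ± 0.09 (SE; adjusted p = 0.00211, edgeR). The test called 17.5% of all genes in these cells, so a call is more common there than in the whole sums.

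Sparc in the marker-bearing cells was 262 to 487 CPM in the controls and 529 to 944 CPM in the mutants, without overlap. Smoc2 was 0 to 29.1 CPM in the controls and 31.8 to 77.4 CPM in the mutants, also without overlap. In the cells below the threshold, none of the 10 genes was called, where edgeR called 2.32% of all genes and 2953 genes had an unadjusted p under 0.05. Of the 2176 cells over all stages with more than 5% globin UMIs (globin-high cells), 28 were marker-bearing and the rest lay below the threshold. The 8 blood markers together made 92041 CPM below the threshold and 3348 CPM in the marker-bearing cells. In E9.5 samples of at least 60 cells, globin-high cells were 21.6 ± 13.9% of control and 14.6 ± 5.01% of mutant cells (SD, n = 5 each). The part of blood in this split was not tested. Below the threshold Postn averaged 6.89 ± 2.61 CPM in the controls (SD, n = 5) and 14.4 ± 10.8 CPM in the mutants (SD, n = 6), a log2 fold change of 0.97 (adjusted p = 0.206, edgeR). The control means of this paragraph leave out Bar6, whose 6 cells the fit below the threshold kept. Sparc changed by 0.10 (adjusted p = 0.761, edgeR), at 135 ± 30.7 against 152 ± 66.1 CPM (SD, n = 5 and 6). Smoc2 changed by 1.08 and Tnc by 0.75 without being called (adjusted p = 0.0748 and 0.0988, edgeR). The difference between the marker-bearing cells and the rest was not tested.

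Wt1-positive cells alone, which do not depend on that threshold, gave the same direction at E9.5. They are not a separate check: Wt1 is among the 8 markers, and 965 of the 1230 Wt1-positive cells were also marker-bearing. In Wt1-positive cells at E9.5 Postn was 19.0 to 32.7 CPM in 4 control samples and 41.7 to 140 CPM in 4 mutant samples. Sparc was 338 to 410 against 623 to 863 CPM. edgeR called Postn (1.82 ± 0.28), Smoc2 (1.12 ± 0.25), Sparc (0.87 ± 0.10) and Fn1 (0.58 ± 0.09; log2 fold changes ± SE, adjusted p = 0.0115, 0.0382, 0.00460 and 0.0115) where 3.77% of all genes were called. Tnc, at 0.60, was not called there (adjusted p = 0.104, edgeR). At E8.0 the order of Postn and Smoc2 in Wt1-positive cells was turned round, in samples of 22 to 41 such cells and without a test. Postn was 26.8 and 63.7 CPM in controls Bar26 and Bar29 and 0.877 and 3.08 CPM in mutants Bar27 and Bar28. Smoc2 was 64.8 and 67.8 against 30.7 and 23.1 CPM, and Fn1 275 and 360 against 324 and 278 CPM. The share of E9.5 Postn UMIs that came from marker-bearing cells was 66.6% in controls and 84.2% in mutants, where these cells were 30.8% and 38.9% of all cells.

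**Figure D2:**
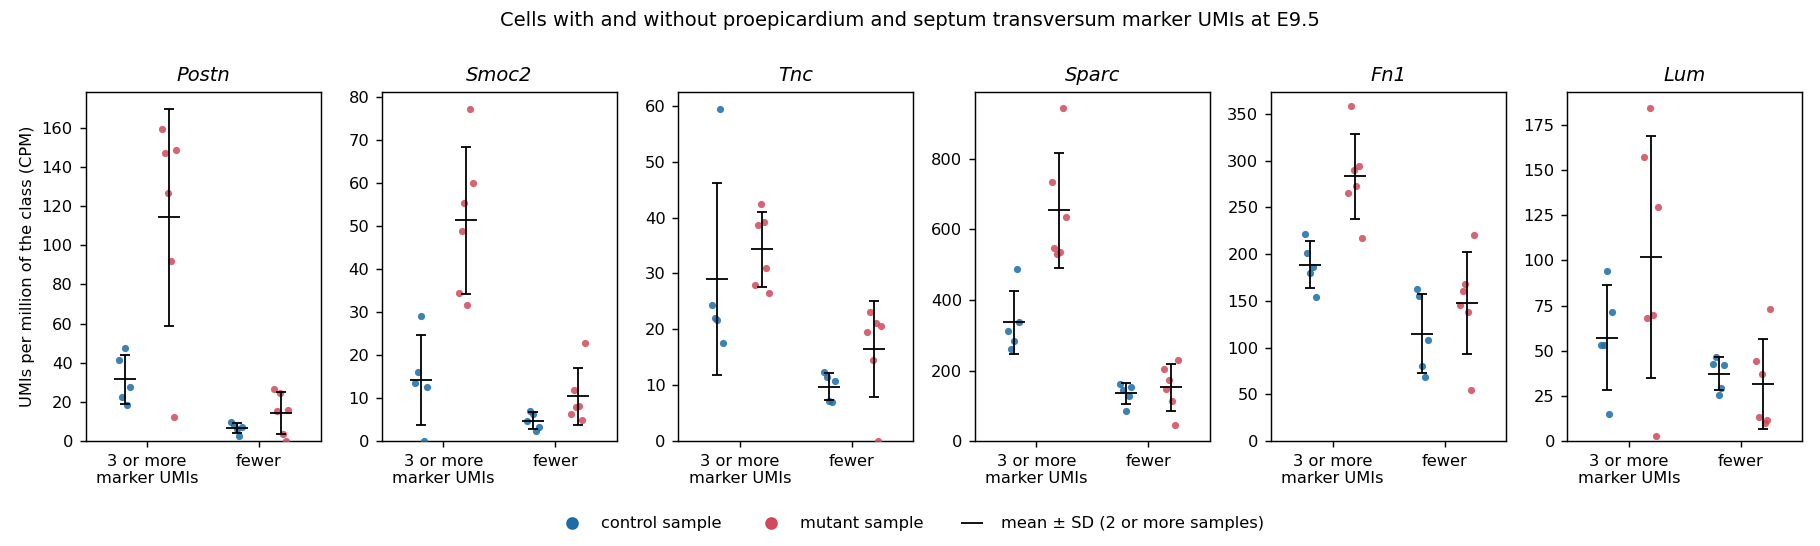
Levels of Postn, Smoc2, Sparc, Tnc, Fn1 and Lum at E9.5 in CPM of the class, in cells with at least 3 UMIs of the 8 proepicardium and septum transversum markers and in the cells below that threshold; points are barcode samples with at least 20 cells of the class and black bars are the mean ± SD. The Sparc mutants at 529 to 944 CPM lie apart from the controls at 262 to 487 CPM in the marker-bearing cells, and the groups overlap below the threshold.

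At E8.0 none of the 10 genes was called. edgeR called 0.0244% of all genes at that stage, which is 4 of 16416, 1615 genes had an unadjusted p under 0.05, and DESeq2 called 37 genes and none of the 10. Sparc was 152, 136 and 164 CPM in the 3 controls and 178, 224 and 194 CPM in the 3 mutants, so every mutant was above every control (log2 fold change 0.32 ± 0.10, SE; adjusted p = 0.496, edgeR). Fn1 was 282, 220 and 304 CPM against 308, 383 and 365 CPM, again without overlap (0.31 ± 0.12, SE; adjusted p = 0.496, edgeR). Postn was 5.40, 12.1 and 6.63 CPM in the controls and 7.37, 6.71 and 9.34 CPM in the mutants, a log2 fold change of -0.15 ± 0.30 (SE; adjusted p = 0.892, edgeR). Smoc2 was likewise mixed, at 6.30, 11.9 and 8.75 against 10.7, 9.70 and 9.69 CPM (0.07 ± 0.22, SE; adjusted p = 0.938, edgeR). The other 6 genes had log2 fold changes from 0.08 for Smoc1 and Hapln1 to 0.40 for Bgn, and for each of them the groups overlapped. How many of all genes separate with 3 samples against 3 was not counted. Male cells were 80.5 to 82.4% in the E8.0 mutants and 1.63 to 42.6% in the E8.0 controls, and the part of sex was not tested.

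With 1 mutant sample at E8.5 no test was run at that stage, and each sample is given with an exact Poisson 95% interval, which covers counting error only. The control Bar3 (2508 cells) and the mutant Bar1 (487 cells) were the larger ones, and control Bar2 had 34 cells. Sparc was 159 CPM (156 to 162) in Bar3 and 190 CPM (181 to 198) in Bar1, and 132 CPM (109 to 158) in Bar2. Smoc2 was 13.4 CPM (12.5 to 14.4) in Bar3, 27.8 CPM (24.7 to 31.2) in Bar1 and 22.9 CPM (13.996 to 35.4) in Bar2, and the intervals of Bar1 and Bar2 overlap. Postn was 13.9 CPM (12.995 to 14.9) in Bar3, 2.29 CPM (0.277 to 8.28) in Bar2 and 9.73 CPM (7.94 to 11.8) in Bar1, between the controls. Tnc was 10.4 CPM (9.60 to 11.2) in Bar3, 10.3 CPM (4.71 to 19.6) in Bar2 and 21.6 CPM (18.8 to 24.6) in Bar1. Here too the intervals of Bar1 and Bar2 overlap. Fn1 was 105 CPM (102 to 107) in Bar3, 209 CPM (179 to 241) in Bar2 and 165 CPM (157 to 173) in Bar1, so the mutant again lay between the controls. Lum was 37.5 CPM (36.0 to 39.1) in Bar3, 6.87 CPM (2.52 to 15.0) in Bar2 and 34.0 CPM (30.5 to 37.7) in Bar1, whose interval overlaps that of Bar3 and lies above that of Bar2. Hapln1 also showed a wide gap between the controls, at 40.4 CPM (38.8 to 42.0) in Bar3 and 148 CPM (123 to 176) in Bar2, with Bar1 between them at 99.3 CPM (93.4 to 106). In the 28 E7.5 cells Postn, Smoc1, Smoc2 and Tnc had no UMI, whereas Sparc was 105 CPM and Hapln1 46.3 CPM.

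Over all stages together, in a fit that held stage and run as covariates, 3 of the 10 genes were called, all higher in mutants, where edgeR called 10.2% of all genes and 4.47% as higher. Sparc changed by 0.63 ± 0.13, Smoc2 by 1.00 ± 0.23 and Fn1 by 0.41 ± 0.11 (log2 fold changes ± SE; adjusted p = 0.00466, 0.00881 and 0.0259, edgeR). Sparc and Smoc2 were called without each of the 22 samples in turn. Fn1 was lost without control Bar23 or Bar9 or mutant Bar5, at log2 fold changes of 0.39 to 0.41 and adjusted p-values of 0.0514 to 0.0537 (edgeR). Postn (0.87 ± 0.35, SE; adjusted p = 0.128, edgeR) passed without control Bar26, at 1.08 (adjusted p = 0.0389), or without control Bar3, at 1.10 (adjusted p = 0.0430). Tnc (0.54 ± 0.20, SE; adjusted p = 0.0910, edgeR) passed without Bar26, at 0.76 (adjusted p = 0.00423), or without mutant Bar25, at 0.64 (adjusted p = 0.0262). The other 5 genes ran from -0.10 for Smoc1 to 0.26 for Lum.

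The difference between the E9.5 and the E8.0 genotype effects was tested by an interaction term. None of the 10 genes was called, where edgeR called 0.464% of all genes and 2060 genes had an unadjusted p under 0.05. DESeq2 called 1 of the 10, where it called 341 of all 17872 genes. The closest were Smoc2 (1.62 ± 0.37, SE; adjusted p = 0.0595, edgeR) and Postn (1.93 ± 0.55, SE; adjusted p = 0.152, edgeR). Smoc2 passed without control Bar24 (1.78), mutant Bar21 (1.73) or mutant Bar8 (1.43), at adjusted p-values of 0.0459 to 0.0465. Postn passed without control Bar4 (2.22, adjusted p = 0.0263) or mutant Bar5 (2.21, adjusted p = 0.0350). Sparc and Fn1, whose E8.0 groups did not overlap but were not called, had interaction terms of 0.59 ± 0.26 and 0.24 ± 0.23 (SE, adjusted p = 0.386 and 0.744, edgeR). A term that misses the threshold does not show that the effects were equal.

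**Figure D3:**
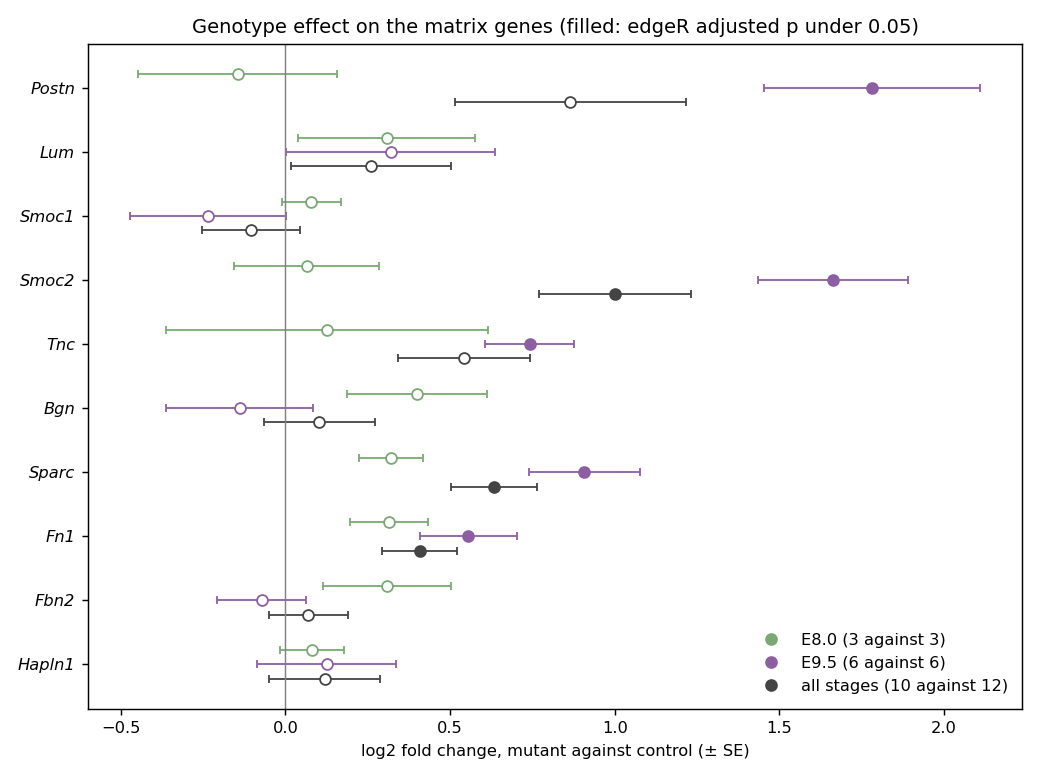
Log2 fold change of mutant against control (± SE, horizontal axis) of each of the 10 genes over all stages, at E8.0 and at E9.5; filled points passed edgeR's test at an adjusted p under 0.05. The filled points at E9.5 are Postn at 1.78, Smoc2 at 1.66, Sparc at 0.91, Tnc at 0.74 and Fn1 at 0.56, and none is filled at E8.0.

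Between E8.0 and E9.5, with genotype as a term, 5 genes rose and 3 fell, where edgeR called 22.5% of all genes, 12.5% as higher and 10.0% as lower. Postn rose by 1.92 ± 0.40 (adjusted p = 0.00164), Lum by 1.74 ± 0.30 (adjusted p = 0.000297), Tnc by 1.23 ± 0.23 (adjusted p = 0.000726), Bgn by 0.92 ± 0.20 (adjusted p = 0.00250) and Sparc by 0.60 ± 0.16 (adjusted p = 0.00994; log2 fold changes ± SE, edgeR). The genes that fell were Fn1, by 0.83 ± 0.15 (adjusted p = 0.000462), Smoc1, by 0.81 ± 0.20 (adjusted p = 0.00614), and Hapln1, by 0.76 ± 0.19 (adjusted p = 0.00664). Smoc2 changed by 0.69 ± 0.28 (adjusted p = 0.0803) and Fbn2 by 0.04 ± 0.18 (adjusted p = 0.914). Lum illustrates the rise: the 6 E8.0 samples lay between 10.6 and 21.1 CPM, and the E9.5 samples had medians of 45.7 CPM in controls and 57.0 CPM in mutants. Since E8.0 lay in run 1 alone, the fit was repeated within that run, and all 8 calls were kept in direction and passed, with Smoc2 added at 0.74 (adjusted p = 0.0496, edgeR), where 29.7% of all genes were called. In the controls alone, where 3.65% of all genes were called, 3 of the 10 genes passed: Lum (1.68), Bgn (1.12) and Fn1 (-0.99), while Postn, at 0.90 (adjusted p = 0.265, edgeR), and Sparc, at 0.30 (adjusted p = 0.515, edgeR), did not.

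Between E8.0 and E8.5, Smoc2 (1.29 ± 0.38), Lum (1.13 ± 0.39), Tnc (0.97 ± 0.32) and Bgn (0.87 ± 0.28) were called as higher and Fn1 (-0.77 ± 0.23) as lower at E8.5 (log2 fold changes ± SE; adjusted p = 0.0233, 0.0453, 0.0370, 0.0326 and 0.0233, edgeR). edgeR called 19.0% of all genes in this comparison, 9.15% as higher and 9.83% as lower. These stages were sequenced in different runs, and a run term can be fitted only through the E9.5 samples, which span all 3. With that term none of the 10 was called, where 0.725% of all genes were and 2348 genes had an unadjusted p under 0.05. The log2 fold changes were then 1.48 ± 0.51 for Tnc, 1.38 ± 0.59 for Lum, 0.94 ± 0.43 for Bgn, 0.67 ± 0.57 for Smoc2 and -0.34 ± 0.28 for Fn1 (SE), so those of Tnc, Lum and Bgn were larger than without the term, those of Smoc2 and Fn1 were closer to 0, and the standard errors were wider for all 5. The count also rested on few samples: it was 0 without control Bar3 or mutant Bar1, 2 without control Bar24 or mutant Bar25, and 3 without control Bar29 or mutant Bar28. How many of all genes those fits called is not given here, so the drop cannot be set against it.

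The 10 genes were next followed in cells gated on a transcription factor or sarcomere gene. A cell counted as Tbx4-positive, Ebf1-positive or Tnnt2-positive with at least 1 UMI of the gene, and a sample entered with at least 20 such cells. Tbx4 marks posterior lateral plate and allantois, Ebf1 is a transcription factor of cranial and other mesenchyme, and Tnnt2 encodes the troponin T of cardiomyocytes. There were 464, 5219 and 4665 such cells. The gates overlapped, with 1265 cells both Ebf1-positive and Tnnt2-positive, and 1 UMI can come from free RNA, so a stricter class of 1083 cells with at least 10 Tnnt2 UMIs was added. The 10 cardiomyocyte markers together made 34619 CPM in that class, 8187 CPM in all Tnnt2-positive cells and 978 CPM in Ebf1-positive cells. Of the Tnnt2-positive cells 2148, and of the Ebf1-positive cells 1827, also reached 3 UMIs of the proepicardium markers, so these classes are not separate from the marker-bearing cells.

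Tbx4-positive cells were few, and 9 samples had enough of them. Fn1 in them was 522 and 511 CPM in 2 E8.0 controls and 565, 851 and 680 CPM in 3 E8.0 mutants. Postn in these cells at E8.0 was 0.735 and 0 CPM in the controls and 0, 15.4 and 1.17 CPM in the mutants, and was 161 CPM in the E8.5 control Bar3. At E9.5 it was 123 and 66.7 CPM in 2 controls and 299.6 CPM in mutant Bar19, the only mutant with enough of these cells (24). Sparc at E9.5 was 464 and 348 CPM in those controls and 992 CPM in Bar19, and Lum 44.4 and 32.9 against 140 CPM. None of the 10 genes was called over all stages, where edgeR called 0.0190% of all genes, 2 of 10503, and 826 genes had an unadjusted p under 0.05. DESeq2 called none of the 10 and only 5 of the 10503 genes. With so few calls, a count of 0 says nothing about the 10. Smoc2 had the largest log2 fold change of the 10, 3.25 (adjusted p = 0.331, edgeR), from low counts.

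In Ebf1-positive cells Sparc and Fn1 rose over all stages, by 0.34 ± 0.08 and 0.47 ± 0.07 (log2 fold changes ± SE; adjusted p = 0.0132 and 0.00284, edgeR), where 9.10% of all genes were called and 3.38% as higher. Without control Bar23 the Sparc call was lost (0.31, adjusted p = 0.0512, edgeR). Without control Bar26 the count of the 10 genes called was 4, with the count over all genes in that fit not given here. At E9.5 Fn1 was 153 to 186 CPM in 5 controls and 209 to 276 CPM in 5 mutants, and Smoc2 3.15 to 10.0 against 9.62 to 16.9 CPM. In E9.5 Ebf1-positive cells alone 5 genes were called, where 12.6% of all genes were: Smoc2 (1.31 ± 0.20), Tnc (1.06 ± 0.25), Sparc (0.46 ± 0.09) and Fn1 (0.47 ± 0.07) as higher, and Lum (-0.97 ± 0.25) as lower (log2 fold changes ± SE; adjusted p = 0.00104, 0.0148, 0.00691, 0.00119 and 0.0218, edgeR). Lum was the member that fell in this class: the 5 controls lay at 79.3 to 99.4 CPM and 4 of the 5 mutants at 26.4 to 69.0 CPM. The other mutant, Bar8, with 34 such cells, was at 94.6 CPM. Over all stages Lum was not called in Ebf1-positive cells (-0.51, adjusted p = 0.175, edgeR).

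In Tnnt2-positive cells Sparc (0.43 ± 0.07), Fn1 (0.35 ± 0.07) and Smoc2 (0.87 ± 0.25) rose over all stages (log2 fold changes ± SE; adjusted p = 0.00386, 0.00536 and 0.0382, edgeR), where 8.23% of all genes were called and 3.80% as higher. The Smoc2 call was lost in 10 of the 18 fits that left out 1 sample, without control Bar24, Bar3, Bar22, Bar23 or Bar9 or mutant Bar1, Bar19, Bar20, Bar10 or Bar8, at 0.72 to 0.90 and adjusted p-values of 0.0511 to 0.116. Without control Bar26 the count of the 10 genes called was 5, with the count over all genes in that fit not given here. At E9.5 alone Postn (2.06 ± 0.35), Smoc2 (1.63 ± 0.27), Sparc (0.62 ± 0.10) and Fn1 (0.42 ± 0.11) were called as higher (log2 fold changes ± SE; adjusted p = 0.00529, 0.00476, 0.00340 and 0.0417, edgeR), where 5.05% of all genes were. Postn in these cells was 4.66 to 35.5 CPM in the 5 controls and 38.3 to 120 CPM in the 5 mutants, without overlap. Sparc was 270 to 423 against 447 to 606 CPM, also without overlap. Lum, which fell in the Ebf1-positive cells, was 9.32 to 62.8 CPM in the controls and 20.8 to 153 CPM in the mutants here, a log2 fold change of 1.42 at E9.5 that was not called (adjusted p = 0.0752, edgeR).

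The pooled cells of each genotype also differed in which gates held the Lum UMIs, a description without a test. In the E9.5 controls 74.1% of Lum UMIs came from Ebf1-positive cells and 40.8% from proepicardium-marker cells, and in the mutants 21.3% and 75.4%. The mutant shares lean on 1 sample: Bar20, with 686 of the 2785 mutant cells, held 1537 of the 3003 mutant Lum UMIs. Ebf1-positive cells were 35.4 ± 9.49% of cells in the controls and 27.7 ± 5.57% in the mutants (SD, n = 5 each, samples of at least 60 cells). Bgn, its relative, stayed mostly with Ebf1-positive cells, which held 81.5% of its UMIs in the controls and 65.7% in the mutants. Its level in these cells was 36.6 ± 7.16 against 36.9 ± 11.2 CPM (SD, n = 5 each).

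Cells with at least 10 Tnnt2 UMIs differed in another member. Hapln1 fell over all stages, by 0.67 ± 0.16 on the log2 scale (SE; adjusted p = 0.0258, edgeR), where edgeR called 2.23% of all genes. No other member was called, and Smoc1 was too low to be tested. At E8.0 Hapln1 in these cells was 67.5 ± 18.6 CPM in controls and 51.5 ± 14.5 CPM in mutants (SD, n = 3 each). At E9.5 its level also differed by run: the run 1 and run 2 controls were at 43.1, 49.9 and 54.4 CPM and the run 1 mutants at 23.4, 27.9 and 17.9 CPM, but the run 3 controls were at 14.6 and 14.3 CPM and the run 3 mutants at 16.6 and 8.74 CPM. At E9.5 alone the gene was not called (-0.76, adjusted p = 0.0568, edgeR), and leaving out control Bar3, Bar22 or Bar23, or mutant Bar28, Bar1 or Bar19, ended the call at -0.56 to -0.67. Postn was low in these cells, at 0.833 ± 0.839 against 1.55 ± 1.09 CPM at E9.5 (SD, n = 5 each), in contrast to the wider Tnnt2-positive class. In Tnnt2-positive cells below 10 UMIs, 3 of the 10 genes were called, where 5.06% of all genes were.

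**Figure D4:**
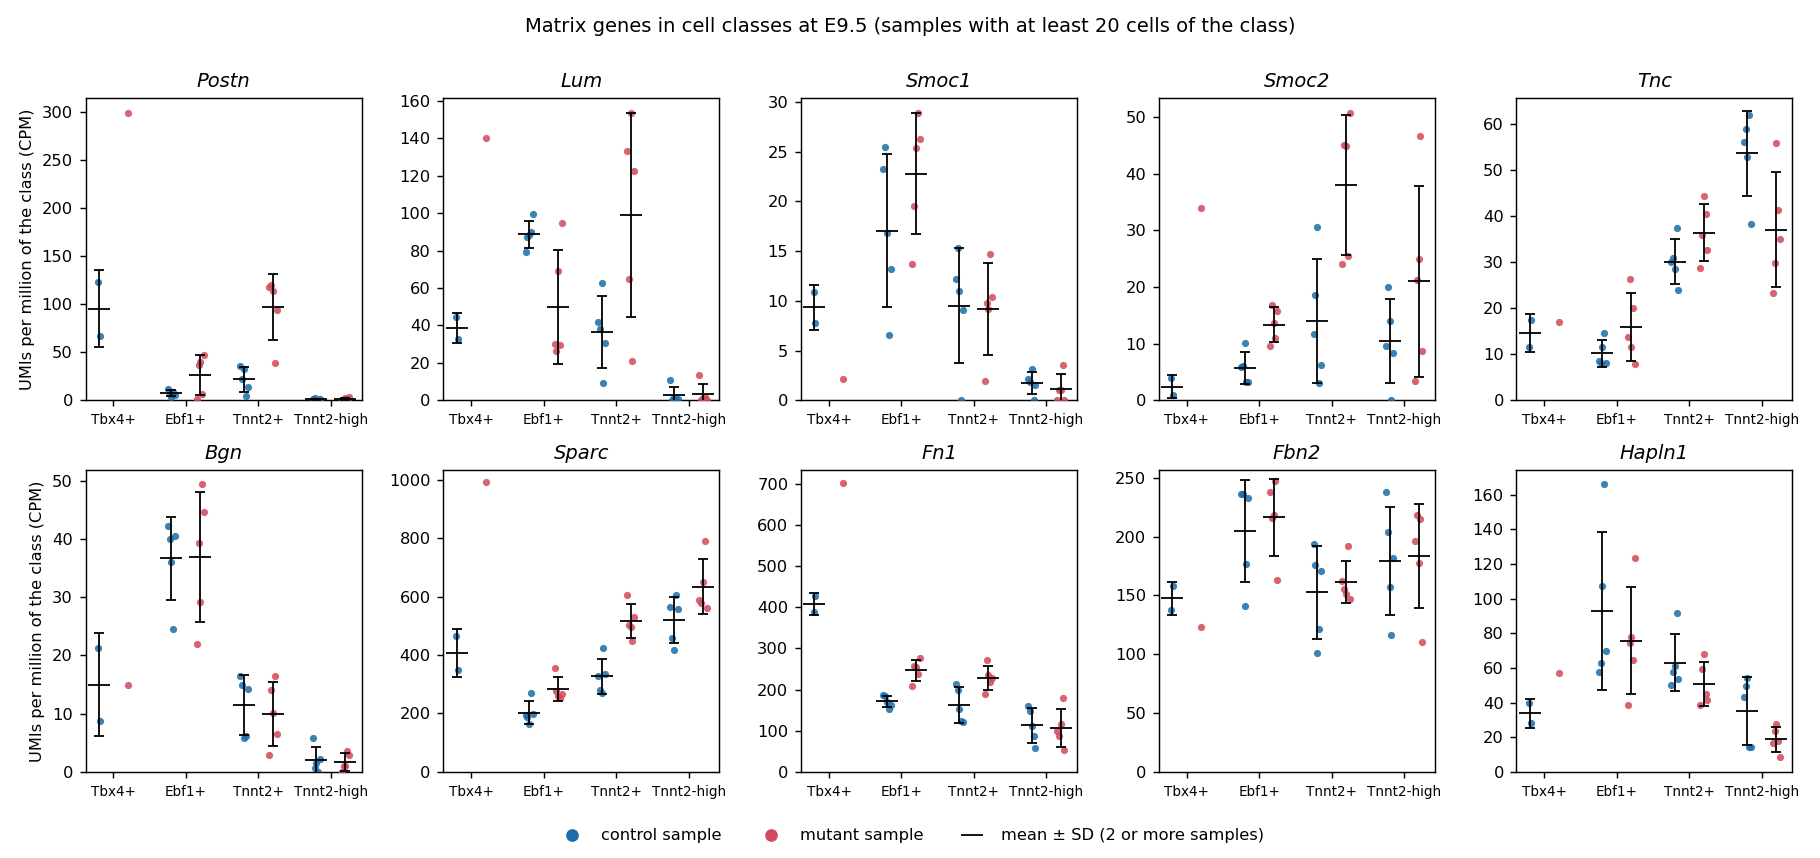
Levels of the 10 genes at E9.5 in CPM of the class in Tbx4-positive, Ebf1-positive and Tnnt2-positive cells and in cells with at least 10 Tnnt2 UMIs; points are barcode samples with at least 20 cells of the class, and black bars are the mean ± SD where a group has at least 2 samples. Lum lies at 79.3 to 99.4 CPM in Ebf1-positive controls and at 26.4 to 94.6 CPM in Ebf1-positive mutants, and its order is turned round in Tnnt2-positive cells without a call.

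Cells gated on at least 1 UMI of Cdh5 or Meox1 are given as a description, and overlap the gates above: 275 of the 470 Cdh5-positive and 2150 of the 4230 Meox1-positive cells were also Ebf1-positive. Cdh5-positive cells, gated on the cadherin of endothelium, held Hapln1 at 421 ± 92.6 CPM in 3 E9.5 controls (SD) and at 325 CPM in the 1 mutant with enough cells. Fn1 in Cdh5-positive cells at E8.0 was 492 ± 79.3 CPM in 3 controls and 992 ± 106 CPM in 2 mutants (SD). Meox1-positive cells, which include the paraxial mesoderm, held Smoc1 at 52.5 ± 2.80 CPM in E8.0 controls and 53.3 ± 2.25 CPM in mutants.

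Shares of cells with a UMI were compared after each cell was thinned to 5000 UMIs, which left out 122 control and 33 mutant cells at E9.5, where the median depth was 19929 UMIs in controls and 17510 in mutants. The background was read from 2120 cells in which globin genes held more than 5% of UMIs, a blood class that should lack most of these genes. Smoc2 was seen in 3.65 ± 1.66% of thinned control cells and 10.5 ± 4.61% of mutant cells (SD, n = 5 and 6), against 0.377% in the globin-high cells. Postn was seen in 3.89 ± 1.10% and 6.81 ± 2.99%, against 0.189%, and Sparc in 39.6 ± 4.14% and 50.2 ± 6.13%, against 3.25%. Lum was seen in 10.9 ± 2.17% of control and 8.23 ± 2.84% of mutant cells, against 0.755%, and no order is read from its shares because its CPM went the other way. Unthinned shares were 8.64 and 17.3% for Smoc2, 7.87 and 10.2% for Postn, and 18.0 and 12.6% for Lum. Postn was concentrated in few cells: the 1% of E9.5 cells with the most Postn held 55.1% of its UMIs in controls and 42.3% in mutants.

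The related genes of the matrix were read from 7 lists, each given by its counts over all stages, where 10.2% of all genes were called and the median log2 fold change of all genes was 0.02. Among 38 matrix enzymes and inhibitors 10 rose and none fell, with a median of 0.25. P4ha1 and P4ha2, prolyl hydroxylases that stabilise the collagen helix, rose by 1.05 and 1.26, Loxl2, a lysyl oxidase that crosslinks collagen, by 0.75, and Adamts9, a protease that cleaves versican, by 0.78. Among 25 proteoglycans 5 rose and 1 fell (median 0.16), including Sdc4, a cell surface syndecan, at 0.96, Dcn, the collagen-binding decorin, at 0.95, Hspg2, the basement membrane perlecan, at 0.39, and the glypican Gpc6 at 0.44. Of 18 integrin subunits 3 rose and none fell (median 0.21), with Itga1 at 0.56, Itga3 at 0.51 and Itgb1 at 0.34. Itgb1 is the beta subunit shared by most fibronectin and collagen receptors.

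The remaining lists had fewer calls. Of 15 other matricellular genes 1 rose, Thbs4, a thrombospondin, at 1.11 ± 0.25, and 1 fell, Vtn, the adhesion protein vitronectin, at -1.92 ± 0.39 (log2 fold changes ± SE; list median 0.20). Of 17 microfibril and elastic fibre genes 1 rose, Ltbp1, which binds latent TGF-beta, at 0.52 (median 0.10), and of 15 TGF-beta ligands, receptors and targets 1 rose, Tgfb1i1 at 0.64 (median 0.25). None of 13 hyaluronan genes was called (median 0.19). At E8.0, where 0.0244% of all genes were called, no gene of any list was. At E9.5, where 10.3% of all genes were called and 5.71% as higher, the counts of higher and lower genes were 9 and 0 of 36 matrix enzymes, 6 and 2 of 24 proteoglycans, 4 and 0 of 15 TGF-beta genes, 3 and 0 of 15 microfibril genes, 1 and 2 of 14 matricellular genes, 1 and 1 of 11 hyaluronan genes, and 1 and 0 of 15 integrins. Between E8.0 and E9.5, where 22.5% of all genes were called and 12.5% as higher, the counts of higher and lower genes at E9.5 were 10 and 0 of 15 microfibril genes, 8 and 2 of 14 matricellular genes, 13 and 3 of 38 matrix enzymes, 7 and 2 of 24 proteoglycans, 1 and 3 of 11 hyaluronan genes, 1 and 2 of 17 integrins, and 1 and 1 of 15 TGF-beta genes.

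Across the 21 samples with at least 20 cells, the 10266 genes with a mean of at least 5 CPM were ranked by the correlation of log2(CPM + 1) with each member; the samples share stage, run and depth, so these values are a description. Postn was most like Cpne3 (Pearson r = 0.907) and Dkk2 (0.902), an extracellular modulator of Wnt signalling. Bgn was most like Sfrp2 (0.913), a secreted Wnt-binding protein, and Tgfbi (0.872), a matricellular protein. Sparc was most like S100a11 (0.938) and Ikbip (0.930), Smoc2 like Npc2 (0.934) and Gabarap (0.925), Tnc like Zfp931 (0.946) and Ghr (0.937), and Lum like Nppa (0.828) and Pola1 (0.814). Smoc1 was closest to Hnrnpul2 (0.967) and Ttc19 (0.966), Fn1 to Aplp2 (0.954) and Canx (0.952), Fbn2 to Stxbp6 (0.964) and Pde3b (0.963), and Hapln1 to Gm13889 (0.870) and Rapgef6 (0.853). Among the members themselves, the pairs Fn1 and Smoc1 (0.852), Fbn2 and Smoc1 (0.838) and Postn and Tnc (0.821) were the most alike.

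In the GRCm38 annotation Postn lies on the plus strand of chromosome 3 from 54361109 to 54391037, Lum on the plus strand of chromosome 10 from 97565128 to 97572703, and Smoc1 on the plus strand of chromosome 12 from 81026808 to 81186414. Smoc2 lies on chromosome 17 (plus, 14279506 to 14404790), Tnc on chromosome 4 (minus, 63959785 to 64047015), Bgn on chromosome X (plus, 73483602 to 73495933) and Sparc on chromosome 11 (minus, 55394500 to 55423183). Fn1 lies on chromosome 1 (minus, 71585520 to 71653200), Fbn2 on chromosome 18 (minus, 58008623 to 58210487) and Hapln1 on chromosome 13 (plus, 89539796 to 89611652). The 10 genes thus lay on 10 different chromosomes, and UMIs were counted over whole genes.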

How the data were processed

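UMI counts of 14777 cells and 51923 genes, not normalized, were deposited by the authors as a sparse matrix with a per-cell table of run, barcode, stage and genotype; per the labels, reads were mapped with kallisto and bustools under a custom 10x v3 setting and MULTI-seq barcodes were demultiplexed. The submitters' processing notes also name Cell Ranger and GRCm38. No cell was removed, and how doublets were treated is not given in the sources used here.

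Counts were summed per barcode sample (134457 to 61307782 UMIs), over all cells or over gated cells. Gated sums needed at least 20 cells per sample, except that fits without proepicardium-marker cells or without globin-high cells kept every sample. The sums were tested in R 4.3.3 with the quasi-likelihood F test of edgeR 4.0.16 (two-sided, after filterByExpr and TMM scaling, Benjamini-Hochberg over all genes, threshold 0.05), with stage and run as covariates, or genotype where stages were compared. limma 3.58.1 and DESeq2 1.42.0 served as alternatives, beside other gates, filters and scalings and each sample left out in turn. The fits were tested on simulated data. The members, the related lists and the marker lists were chosen with earlier results of these data known. All 10 members are named. Of each related list the genes called over all stages are named, at most 4, by lowest p-value, and for each member the 2 most correlated genes. The fits on Wt1-positive cells, on Tnnt2-positive cells below 10 UMIs, on samples of at least 60 cells and with or without cells of 3 proepicardium-marker UMIs were chosen after the data were seen. Symbols were matched to GENCODE M21 and promoters are RefSeq's (GRCm38.p6).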

Additional observations from a re-analysis of the deposited data

Results flagged for a closer look

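For 20 groups of 4 to 10 samples (the 10 genes in the E9.5 controls and in the E9.5 mutants), the gap of the highest or lowest sample to its nearest neighbour was compared with the group's range by Dixon's 95% critical value, which chance exceeds in about 1 in 20 groups. It was exceeded 3 times. Fbn2 in the E9.5 mutant Bar5 was 59.3 CPM, with the nearest mutant at 133 CPM, and Bar5 had 57 cells. Hapln1 in the E9.5 control Bar6 was 0 CPM, with the nearest control at 43.0 CPM, and Tnc in the same sample was 0 CPM, with the nearest control at 11.2 CPM. Bar6 had 6 cells, so each of these zeros rests on 134457 UMIs in all.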

How the results depend on the processing

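Counts of the 10 genes called moved by more than 1.5 times as follows; the cause was not tested. Beside each count, apart from those over samples left out in turn, stands in parentheses how many of all genes tested were called. Where few were, a count of 0 says nothing about the 10. The 3 calls of the genotype fit over all stages (2132 of 20831 genes) became 0 in run 1 alone (2 of 17577), 0 in run 2 alone (27 of 12966), 1 with limma on mean CPM (506 of 20831), 0 without proepicardium-marker cells (450 of 18997), 0 in Wt1-positive cells (4 of 11067), 5 without E8.0 (2463 of 20304) and 0 without E9.5 (1 of 18646). The 5 calls at E9.5 (1766 of 17227) became 2 in run 3 (58 of 11111), 0 with limma (132 of 17227) and 0 without proepicardium-marker cells (353 of 15214). No count is given for E9.5 fits with 1 mutant sample, which were run 2 alone and Tbx4-positive cells. The interaction gave 1 call with DESeq2 (341 of 17872) and 2 without a filter on low counts (669 of 34851). E9.5 against E8.0 gave 3 in controls alone (651 of 17860), and E8.5 against E8.0 gave 2 with RLE size factors (3582 of 18063) and 0 with a run term (131 of 18063). In Tbx4-positive cells there were 5 without a filter (233 of 24880). In Ebf1-positive cells there were 6 without a filter (2157 of 32622), 1 at a gate of 2 UMIs (1006 of 14883) and 5 at E9.5 alone (2038 of 16187), and in Tnnt2-positive cells 5 without a filter (2135 of 32383). In cells with at least 10 Tnnt2 UMIs there were 0 with 50 cells per sample (25 of 11928) and 0 at E9.5 alone (401 of 9799). Over samples left out in turn the counts ran from 2 to 5 (all stages), 0 to 0 (E8.0), 4 to 5 (E9.5), 0 to 1 (interaction), 8 to 9 (E9.5 against E8.0), 0 to 6 (E8.5 against E8.0), 0 to 0 (Tbx4), 1 to 4 (Ebf1), 2 to 5 (Tnnt2) and 0 to 1 (at least 10 Tnnt2 UMIs). How many of all genes these fits called is not given here, so the ranges cannot be set against it.

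Signs turned over all stages, for values mostly not called, as follows. Postn was -0.62 in run 2 and -0.20 without E9.5, and Lum -0.39 in run 2 and -0.25 without proepicardium-marker cells. Smoc1 was 0.40 in run 3, 0.022 with the male share, 0.064 without proepicardium-marker cells and 0.042 without E9.5. Bgn was -0.54 in run 3, -0.066 with the male share, -0.17 in proepicardium-marker cells, -0.027 without samples under 60 cells and -0.039 without E8.0, and Fbn2 -0.087 in proepicardium-marker cells and -0.021 without E8.0. At E9.5 Postn was -1.48 and Lum -1.74 in run 2, and Lum -0.50, Hapln1 -0.0053, Thbs4 -0.36 and Itga1 -0.037 without proepicardium-marker cells. Smoc1 was 0.38 in run 3, Bgn 0.036 with DESeq2, 1.64 in run 2, 0.16 with limma and 0.78 in Wt1-positive cells, where Thbs4 was -0.051, and Fbn2 0.14 in run 2, 0.18 in run 3, 0.034 with the male share and 0.22 with limma. Lum in Tbx4-positive cells was -2.43 at a gate of 2 UMIs and -0.58 with 50 cells per sample. Leaving out samples gave ranges of -0.33 to 0.067 for Bgn, -0.18 to 0.010 for Fbn2 and -0.025 to 0.30 for Hapln1 at E9.5, -0.0032 to 0.12 for Fbn2 over all stages and -0.52 to 1.61 for Lum in Tbx4-positive cells. No paired analysis was possible because the barcode samples of the 2 genotypes share no replicate number.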
